A study of Mus musculus with 206 samples.

Results

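Regions listed as acetylated in prefrontal cortex (PFC) neurons and in no other of the 4 brain regions profiled were 394 of the 18272 PFC consensus regions, or 2.16%. They were chosen from the consensus lists: each shares not even 1 bp with a consensus region of hippocampus, hypothalamus or striatum. The 4 lists together hold 108274 regions and differ in length. The same rule picks 3225 of 16201 regions for hippocampus, 358 of 13788 for hypothalamus and 32669 of 60013 for striatum. The choice therefore rests on where peaks were called, and peak presence is given here as a description without a test.

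H3K27ac was profiled by MOWChIP-seq, a low-input chromatin immunoprecipitation run in a microfluidic device, in about 10000 NeuN+ nuclei per library, NeuN being a protein of neuronal nuclei. All mice were wild-type C57BL/6NTac of both sexes that were raised by drug-naive surrogate dams. In SAL-SAL mice (8 PFC libraries used), the perinatal treatment and the adult injection were both saline. In MOR-SAL mice (9 libraries), the dams had carried pumps that released morphine at 10 mg/kg per day, the pups received 10 mg/kg of morphine subcutaneously 2 times a day until the morning of postnatal day 14, and the adult injection was saline. SAL-LPS mice (11 libraries) had perinatal saline and an adult injection of lipopolysaccharide (LPS), a bacterial cell wall component that sets off an innate immune response. MOR-LPS mice (14 libraries) had both perinatal morphine and adult LPS. Tissue was taken by bilateral punch 2 hours after the adult injection. Each library comes from 1 animal. PFC libraries were built with another library kit than those of the other 3 brain regions, so kit and brain region cannot be told apart in any comparison between them.

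Acetylation of lysine 27 on histone H3 marks active promoters and enhancers, and enhancers in particular differ between brain regions and neuron types. The PFC holds mostly glutamatergic projection neurons, ordered in layers and specified by transcription factors such as Tbr1 and Fezf2, together with GABAergic interneurons. Hippocampal pyramidal neurons share much of this programme, being cortical excitatory neurons too, whereas the striatum consists mainly of GABAergic projection neurons.

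The sequence at the summit of 6 PFC-only regions shows what they look like: the 3 strongest, those outside annotated UTRs that differed most from the other brain regions, of which Gramd2 is also among the strongest, and one at a cortical transcription factor gene. Each is 300 bases of the GRCm38 plus strand around the strongest peak's summit, and capitals mark matches on either strand to CAGATG (written CATCTG on the other strand), CAGCTG or the MEF2 motif. The first lies between genes, 29.3 kb from the start of Ndufb3, a subunit of mitochondrial complex I (chr1:58617196-58617495). The second lies in an intron of Gramd2 (chr9:59687642-59687941) and the third at the promoter of Armc2, a gene of sperm flagella (chr10:42018534-42018833). The fourth is at the start of the predicted gene Gm7489 within Samd12 (chr15:53884403-53884702), and the fifth in an intron of Csgalnact1, an enzyme of chondroitin sulfate synthesis (chr8:68561940-68562239). The sixth lies in an intron of Nfia, a nuclear factor I gene (chr4:97894677-97894976).
Ndufb3 (intergenic): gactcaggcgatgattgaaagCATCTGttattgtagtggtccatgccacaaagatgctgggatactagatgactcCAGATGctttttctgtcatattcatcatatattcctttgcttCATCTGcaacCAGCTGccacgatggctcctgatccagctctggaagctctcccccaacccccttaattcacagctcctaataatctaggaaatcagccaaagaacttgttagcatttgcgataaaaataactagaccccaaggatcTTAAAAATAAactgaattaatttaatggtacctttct
Gramd2 (intron): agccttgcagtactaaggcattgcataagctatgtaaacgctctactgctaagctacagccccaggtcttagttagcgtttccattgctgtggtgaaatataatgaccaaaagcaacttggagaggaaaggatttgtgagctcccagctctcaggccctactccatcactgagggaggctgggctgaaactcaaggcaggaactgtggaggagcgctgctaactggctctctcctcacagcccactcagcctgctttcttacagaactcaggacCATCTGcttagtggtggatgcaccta
Armc2 (promoter): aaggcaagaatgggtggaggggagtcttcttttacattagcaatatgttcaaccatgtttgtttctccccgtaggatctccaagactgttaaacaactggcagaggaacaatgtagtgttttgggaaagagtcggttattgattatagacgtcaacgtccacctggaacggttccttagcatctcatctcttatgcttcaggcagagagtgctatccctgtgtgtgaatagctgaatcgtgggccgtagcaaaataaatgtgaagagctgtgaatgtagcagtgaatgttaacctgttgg
Gm7489 (promoter): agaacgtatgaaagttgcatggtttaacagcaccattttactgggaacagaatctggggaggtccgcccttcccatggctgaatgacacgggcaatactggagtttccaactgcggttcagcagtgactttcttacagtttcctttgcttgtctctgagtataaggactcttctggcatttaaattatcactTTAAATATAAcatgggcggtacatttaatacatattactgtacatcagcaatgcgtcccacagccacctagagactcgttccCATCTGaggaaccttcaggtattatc
Csgalnact1 (intron): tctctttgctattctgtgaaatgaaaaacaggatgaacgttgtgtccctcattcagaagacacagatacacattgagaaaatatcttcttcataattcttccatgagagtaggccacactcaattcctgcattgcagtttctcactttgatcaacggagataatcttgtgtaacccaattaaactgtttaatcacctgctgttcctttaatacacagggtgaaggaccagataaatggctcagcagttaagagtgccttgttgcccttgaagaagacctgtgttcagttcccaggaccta
Nfia (intron): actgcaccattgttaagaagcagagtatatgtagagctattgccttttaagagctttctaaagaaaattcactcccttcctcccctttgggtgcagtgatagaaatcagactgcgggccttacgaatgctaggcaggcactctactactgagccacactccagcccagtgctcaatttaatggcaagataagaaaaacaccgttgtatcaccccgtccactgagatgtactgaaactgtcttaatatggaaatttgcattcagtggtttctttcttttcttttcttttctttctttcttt

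The windows differed in composition and in motif content. GC content was 41% in the Ndufb3 window, 50.7% in that of Gramd2 and 40.7% in that of Csgalnact1. The Ndufb3 window held 3 matches to CAGATG, the E-box read by neuronal bHLH factors such as Neurod2, and 1 each to CAGCTG and MEF2. The Armc2, Csgalnact1 and Nfia windows held no match to any of the 9 motifs described. Over all PFC-only regions, 23.1% of windows held CAGATG (95% Wilson interval 19.2 to 27.5), against 22.6% of the other PFC regions and 27.7% of the hippocampus-only regions. CAGCTG was present in 15.2% against 17.2%, TGANTCA, the AP-1 site, in 9.9% against 8.48%, the homeobox core TAATTA in 5.08% against 6.09%, and MEF2 in 3.81% against 3.79%. GGGCGGG, bound by SP and KLF factors at CpG-rich promoters, was present in 1.27% against 3.75%, and the NF-kB motif in 3.05% against 6.44%. Among regions over 2 kb from a coding start, these shares were 0.852% against 1.7% and 2.56% against 5.05%. The CTCF core and the glucocorticoid response element were in 0 of 394 windows, with upper Wilson limits of 0.966%, and in 1.23% and 0.52% of the other PFC windows.

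Some properties of the PFC libraries bear on the values. Of 43 libraries with a peak list, 42 had at least 10000 peaks and were used. They held 11306 to 143527 peaks (from 26091 without MOR-SAL 13-1), and read depth was not known from the peak lists. One used library, MOR-SAL male 13-1, stands apart: it had a peak at 1.52% of the PFC-only and 0.414% of the other PFC regions, at the start of 0 of 14 pan-neuronal genes and at that of 9 of 22 hypothalamic neuron genes. For some limits, medians and differences the value without it is given too. Other values of MOR-SAL or of all PFC libraries include it and may depend on it. The peaks of MOR-LPS female 12-2 carry the name of another replicate, 12-0.

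The label PFC was checked against marker genes, counted as present where 1 of the 10000 strongest peaks lay within 1 kb of a coding start. Tbr1 was present in 21 of the 42 PFC libraries and in 25 of 44 from hippocampus, against 3 of 41 from hypothalamus and 0 of 45 from striatum. Drd1, the dopamine receptor of striatal direct-pathway neurons, was present in 29 of 42 PFC and 14 of 45 striatum libraries. Of the 29 cortical projection neuron transcription factor genes, a median of 20.7% was present in PFC libraries (range 6.9% to 41.4%). It was 17.2% in hippocampus and 10.3% in striatum libraries. For the 37 cortical layer and area markers the medians were 14.9% in PFC, 13.5% in hippocampus and 10.8% in striatum libraries. Of 22 striatal projection neuron genes, a median of 31.8% was present in PFC libraries (range 4.55% to 72.7%), 18.2% in striatum libraries and 4.55% in hippocampus libraries. The Tbr1 start thus lacked a strong peak in 21 of 42 PFC libraries, and genes of the striatal list carried strong peaks in PFC libraries. Bcl11b is in both the cortical transcription factor list and the striatal list, and which cells carried these peaks was not tested.

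The PFC-only regions lay away from promoters, as did the regions found in 1 list only of the other brain regions. Of 394, 31 (7.87%, 95% Wilson interval 5.6 to 11) were within 1 kb of a coding start, against 31.9% of the other PFC regions. A further 171 (43.4%) were intergenic by their midpoint, against 22.5%, and 166 (42.1%) were intronic, against 41.7%. No coding start lay within 100 kb of 135 of them (34.3% against 17.3%). In hippocampus-only, hypothalamus-only and striatum-only regions, the promoter share was 7.44%, 11.2% and 14.9%, and 29.4%, 33.8% and 25.1% had no coding start within 100 kb. Where PFC-only regions had one, the median distance was 40.6 kb against 15.7 kb. The position was not used by the rule, and no test was run, since neighbouring regions share a locus.

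The PFC-only regions were also poorer in GC, among distal regions too. Median GC content was 41.8% in PFC-only and 46.3% in other PFC regions, and 41.7% and 44.8% among regions over 2 kb from a coding start. It was 44.9% in hippocampus-only, 45.8% in hypothalamus-only and 44.8% in striatum-only regions. Median CpG density was 7.96 and 12.6 per kb, and 7.54 and 10.3 per kb among the distal ones. Widths were alike, with medians of 3599 and 3475 bp, and repeats covered medians of 17.6% and 15.8% of a region. By chromosome, 39 PFC-only regions (9.9%) were on chromosome 1, 34 (8.63%) on chromosome 4 and 32 (8.12%) on chromosome 15, which held 6.6%, 5.6% and 4.58% of all PFC regions.

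Peaks at these regions were weaker than elsewhere in the PFC list. In the libraries with a peak, the median over regions of the median −log10 p was 9.11, against 12.2 for other PFC regions, and fold enrichment over background was 5.7 against 6.92. Ranked within each library by its highest −log10 p among all PFC consensus regions, from 0 (lowest) to 100, a PFC-only region had a median mean rank of 25.3, against 48.2. A PFC-only region had a peak in a median of 57.1% of PFC libraries (range 35.7% to 92.9%), against 88.1%. None had a peak in all 42; the highest number was 39 and the lowest 15.

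The share of PFC-only regions found varied widely between PFC libraries, also between lists of like length. The libraries had a peak at a median of 73.9% of the 394 regions, from 1.52% to 100%, with a mean of 58.3% ± 34.7 (SD, n = 42). For the other PFC regions the median was 87.8% and the SD 17.7. Without MOR-SAL 13-1 the lowest share of PFC-only regions was 7.61% and the SDs were 33.9 and 11.8. The 11 libraries with 56000 to 75000 peaks had a peak at 81.1% to 96.3% of the other PFC regions, but at 15% to 90.6% of the PFC-only ones.

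**Figure D1:**
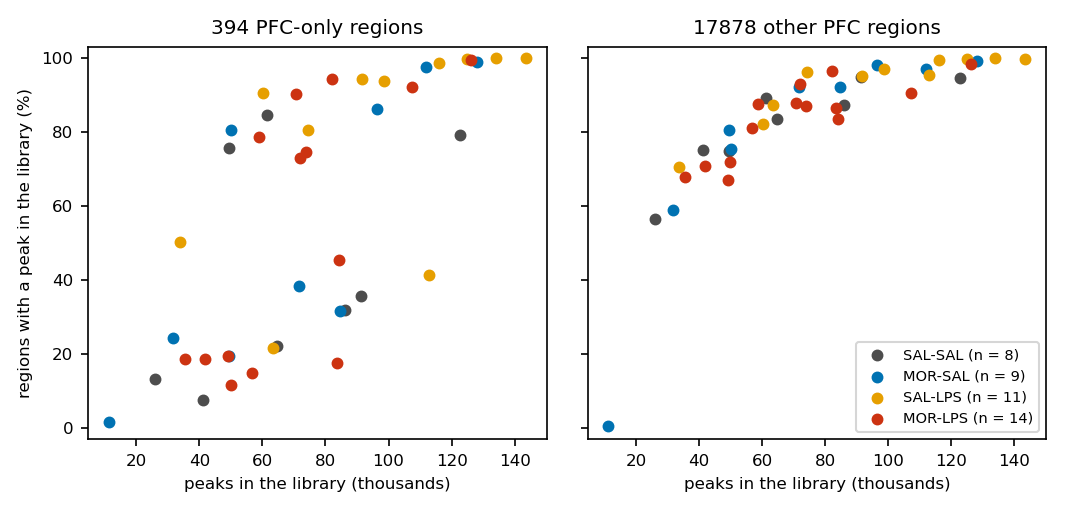
Share of regions with a peak (y axis, percent) against the number of peaks in the library (x axis, in units of 1000), 1 point per PFC library coloured by group, for the PFC-only regions (left) and the other PFC regions (right). On the right the share follows the number of peaks, while on the left libraries of like length lie between 15% and 90.6% in the middle of the range.

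Single libraries show the same in full. SAL-LPS male 1-0, with 63321 peaks, had a peak at 21.6% of PFC-only and 87.4% of other PFC regions. SAL-LPS female 9-3, with 60292 peaks, had a peak at 90.6% and 82.3%. SAL-LPS male 3-3 reached only 41.4% of the PFC-only regions with 112878 peaks, against 95.5% of the others, while MOR-SAL male 17-4 reached 80.5% with 50167 peaks, against 75.5%. Sequencing runs, as far as the peak names tell them apart, each spanned this range, from 1.52% to 100% in 8 libraries of a first run (from 18.8% in 7 without MOR-SAL 13-1), from 11.7% to 100% in 9 of a second and from 7.61% to 99.5% in the 25 with no run named.

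Marker genes of several cell types moved between these libraries, and their part in the result was not tested. In bulk nuclei, fewer nuclei of a type and less acetylation per nucleus cannot be told apart. Among the libraries with 56000 to 75000 peaks, those with a peak at under 40% of PFC-only regions were MOR-LPS 13-0, SAL-LPS 1-0, SAL-SAL 4-1 and MOR-SAL 7-2, in which 12, 10, 16 and 12 of the 22 striatal genes and 3, 3, 5 and 6 of the 29 cortical transcription factor genes were present. SAL-LPS 9-3, MOR-LPS 12-2 and SAL-SAL 1-1, at 90.6%, 90.4% and 84.5% of PFC-only regions, had 5, 5 and 8 of the striatal and 9, 8 and 9 of the cortical genes. SAL-LPS 2-2 went the other way, at 80.5% with 12 striatal and 5 cortical genes. The other 3, MOR-LPS 6-0, 7-1 and 14-0, were at 78.7%, 74.6% and 73.1%, with 6, 4 and 5 striatal and 5, 7 and 5 cortical genes. The 37 cortical layer and area markers did not rise with the share. MOR-LPS 13-0, SAL-LPS 1-0, SAL-SAL 4-1 and MOR-SAL 7-2 had 5, 6, 5 and 7 of them. In SAL-LPS 9-3, MOR-LPS 12-2 and SAL-SAL 1-1 these were 3, 5 and 7. Tbr1 had a strong peak in none of the 4 lowest libraries, but it also lacked one in SAL-LPS 2-2 and MOR-LPS 14-0. Over all 42 libraries, the 21 with a strong Tbr1 peak had a median of 90.4% of PFC-only regions. They ran from 13.2% to 100%, besides MOR-SAL 13-1 at 1.52%. The 21 without had a median of 32% and ran from 7.61% to 99.75%, so the ranges overlapped. The 29 libraries with a strong Drd1 peak had a median of 73.1% and ran from 7.61% to 100%. The 13 without had a median of 74.6% and ran from 1.52% to 98.98%. The median library had 0% of the 16 oligodendrocyte genes, but 14 of 16 were present in SAL-SAL female 9-4 and 7 of 16 in MOR-LPS male 14-4. These libraries had peaks at 79.2% and 45.4% of PFC-only regions. At most 1 of the 12 microglia genes and 2 of the 10 endothelial genes were present in any PFC library. The astrocyte list was at a median of 0%, with 4 of 12 genes in MOR-SAL 13-1.

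**Figure D2:**
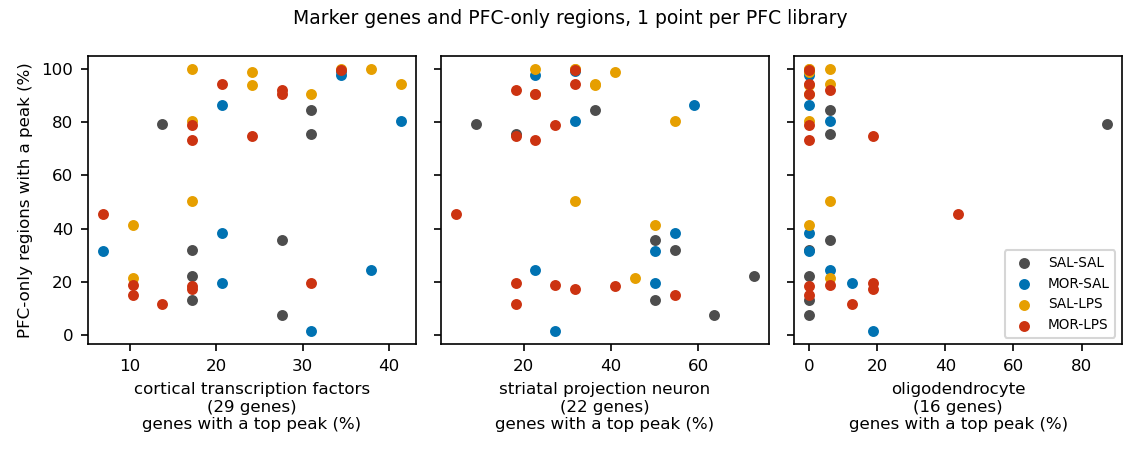
Share of PFC-only regions with a peak (y axis, percent) against the share of a marker list with a peak among the 10000 strongest within 1 kb of a coding start (x axis, percent), 1 point per PFC library coloured by group. Libraries with 10 or more of the 22 striatal genes present lie at or below 41.4%, except SAL-LPS 2-2 at 80.5% and MOR-SAL 15-2 at 86.3%. Those with fewer span the range, from 11.7% in MOR-LPS 15-3 to 100%, besides MOR-SAL 13-1 at 1.52%. The 2 libraries richest in oligodendrocyte genes lie at 79.2% and 45.4%.

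The groups overlapped widely in this share. SAL-SAL libraries had a peak at 7.61% to 84.5% of PFC-only regions (median 33.9%), MOR-SAL libraries at 1.52% to 99% (median 38.3%, or from 19.5% with a median of 59.4% without 13-1), SAL-LPS libraries at 21.6% to 100% (median 93.9%) and MOR-LPS libraries at 11.7% to 99.5% (median 59.3%). Peak numbers differed too, with medians of 63064, 71614 (78175 without 13-1), 98675 and 71302 in that order. Female libraries had a median of 77.4% and male libraries of 43.4% (45.4% without MOR-SAL 13-1). Their median peak numbers were 74172 and 67614 (71907 in males without MOR-SAL 13-1). Females and males were 5 and 3 in SAL-SAL, 3 and 6 in MOR-SAL, 8 and 3 in SAL-LPS and 6 and 8 in MOR-LPS. Sex was thus unbalanced over the groups, and these medians do not separate sex from group.

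Absence from another brain region's consensus list did not mean absence of peaks there. Hippocampus libraries had a peak at a median of 29.2% of PFC-only regions (range 3.55% to 96.7%, n = 44), hypothalamus libraries at 12.4% (2.28% to 78.7%, n = 41) and striatum libraries at 12.4% (1.27% to 34.3%, n = 45). The highest value was SAL-SAL male 1-1 of hippocampus, which had 143124 peaks. With every list cut to its 50000 strongest peaks, the medians were 66.2% in PFC (31 libraries), 23.1% in hippocampus (32), 10.9% in hypothalamus (23) and 11.2% in striatum (27). Hippocampus was the other brain region with the highest share for 325 of the 394 regions, striatum for 37 and hypothalamus for 32. At the other PFC regions the median share of libraries was 75.6% in striatum, 72.7% in hippocampus and 58.5% in hypothalamus. The rule removed every PFC region on the much longer striatum list. The order of the brain regions is therefore partly set by the rule and is no measure of likeness.

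**Figure D3:**
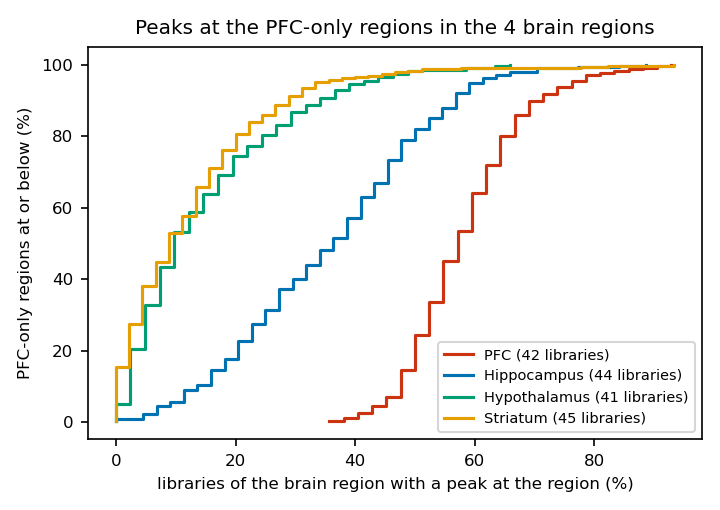
Cumulative share of the 394 PFC-only regions (y axis, percent) against the share of libraries of a brain region with a peak there (x axis, percent), 1 line per brain region. The PFC line is farthest right, with a median of 57.1%, followed by hippocampus at 36.4%, hypothalamus at 9.76% and striatum at 8.89%.

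By this measure the PFC-only regions were not equally particular to PFC. The share of libraries with a peak was higher in PFC than in any other brain region for 355 of 394. A peak was present in at least 50% of the libraries of another brain region at 90 regions, and in at least 20% at 338. A region with no peak in any library was found 3 times in hippocampus, 20 times in hypothalamus and 61 times in striatum. At the far end stood an exonic region of Prickle1, a planar cell polarity gene, and a region near Ywhaz, a 14-3-3 protein gene, with peaks in 77.3% and 84.1% of hippocampus libraries against 59.5% and 64.3% of PFC libraries; these 2 were picked after their values were seen.

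A few regions lay close to the threshold of the rule. Closest inside were an intron of Gda, a guanine deaminase of neurons, with 37 bp to a striatum region, an intron of Arhgap26 with 93 bp to a hippocampus region, and an intron of Dab1, of the reelin pathway, with 104 bp to a striatum region. Outside, the 3 regions overlapped over the fewest bases were Gsg1l, Myl4 and Tcf3, at 85, 209 and 452 bp, the last of these being most of the 506 bp of the Tcf3 promoter region. Peaks were present in 32, 30 and 26 of 42 PFC libraries at the first 3 and in 21, 19 and 38 of 42 at the last 3. Mean ranks were 31.9, 26.1 and 22.3 inside and 19.1, 16.2 and 80.6 outside, so Tcf3 was unlike the others in strength. The median gap of a PFC-only region to the nearest region of another list was 12.5 kb, and 43 had a gap under 1 kb.

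The strongest PFC-only regions are the ones near Ndufb3 and in Gramd2, shown above. The Ndufb3 region had a peak in 39 of 42 PFC libraries, with a mean rank of 59.3 ± 24.2 (SD), but also in 93.3% of striatum and 88.6% of hippocampus libraries, and lies 1545 bp from a striatum consensus region. The Gramd2 region had a peak in 38 of 42, with a mean rank of 59 ± 24.1, and in 29.5% of those from hippocampus, 28.9% from striatum and 24.4% from hypothalamus, so that it had the largest difference between PFC and the next brain region. Its highest −log10 p ran from 6.35 to 18.1 in SAL-SAL (median 10.3), from 0 to 24.5 in MOR-SAL (median 10.6), from 6.96 to 36.8 in SAL-LPS (median 21.9) and from 0 to 28.9 in MOR-LPS (median 11.9), where 0 stands for no peak. The 4 groups overlapped, and the highest libraries were in SAL-LPS.

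Further regions of high mean rank were the Armc2 promoter, with peaks in 36 PFC libraries, an exon of Hpcal4, a neuronal calcium sensor, with 37, and the Donson promoter, a gene of DNA replication, with 37. A region 85.1 kb from Fam174b had peaks in 31 and one 63.6 kb from Ccnh, a subunit of the general transcription factor TFIIH, in 35. An intron of Kbtbd12 had peaks in 34 and an exon of Dtl, a ubiquitin ligase adaptor, in 33. At Dtl, −log10 p had medians of 8.73 in SAL-SAL, 10 in MOR-SAL, 11.8 in SAL-LPS and 8.72 in MOR-LPS, with libraries without a peak in each group. Several had peaks elsewhere too. Donson was also at 51.1% of striatum libraries, Ccnh at 82.2% and Fam174b at 60%, with 131 bp to a striatum consensus region. Armc2 was at 48.8% of hypothalamus and Hpcal4 at 47.7% of hippocampus libraries. Kbtbd12 and Dtl were lower, at no more than 24.4% (striatum) and 18.2% (hippocampus).

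The regions most particular to PFC libraries were weaker. After Gramd2 and Dtl, and with the highest share in another brain region given beside that in PFC, Gm7489 had a peak in 71.4% of PFC and 13.6% of hippocampus libraries, the Csgalnact1 intron in 64.3% and 6.82%, and the promoter of Hnrnpll, a splicing regulator, in 64.3% and 6.82%. A region 7.04 kb from a start of Thrb, a thyroid hormone receptor gene, was at 66.7% in PFC and 13.3% in striatum, one near Sulf1, which edits heparan sulfate, at 59.5% and 6.82% in hippocampus, and one near Pgghg at 61.9% and 8.89% in striatum. A region near Myh4, a myosin gene of muscle, was at 69% and 15.9% in hippocampus, and an intron of Nipal2 at the same shares. At the Csgalnact1 intron, −log10 p reached 16.3 in SAL-SAL, 10 in MOR-SAL, 17.5 in SAL-LPS and 21.7 in MOR-LPS, and 6 of 8, 3 of 9, 8 of 11 and 10 of 14 libraries had a peak.

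The promoters at Gm7489 and Hnrnpll show how presence and absence fell within the groups. At Gm7489, 5 of 8 SAL-SAL libraries had a peak, with −log10 p up to 5.62, 6 of 9 MOR-SAL libraries, up to 9.91, 10 of 11 SAL-LPS libraries, up to 17, and 9 of 14 MOR-LPS libraries, up to 22.1. At Hnrnpll the counts were 2, 6, 10 and 9 in that order, with highest values of 9.59, 11.5, 13 and 13.5. Each group held libraries without a peak at either promoter, and the groups overlapped.

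**Figure D4:**
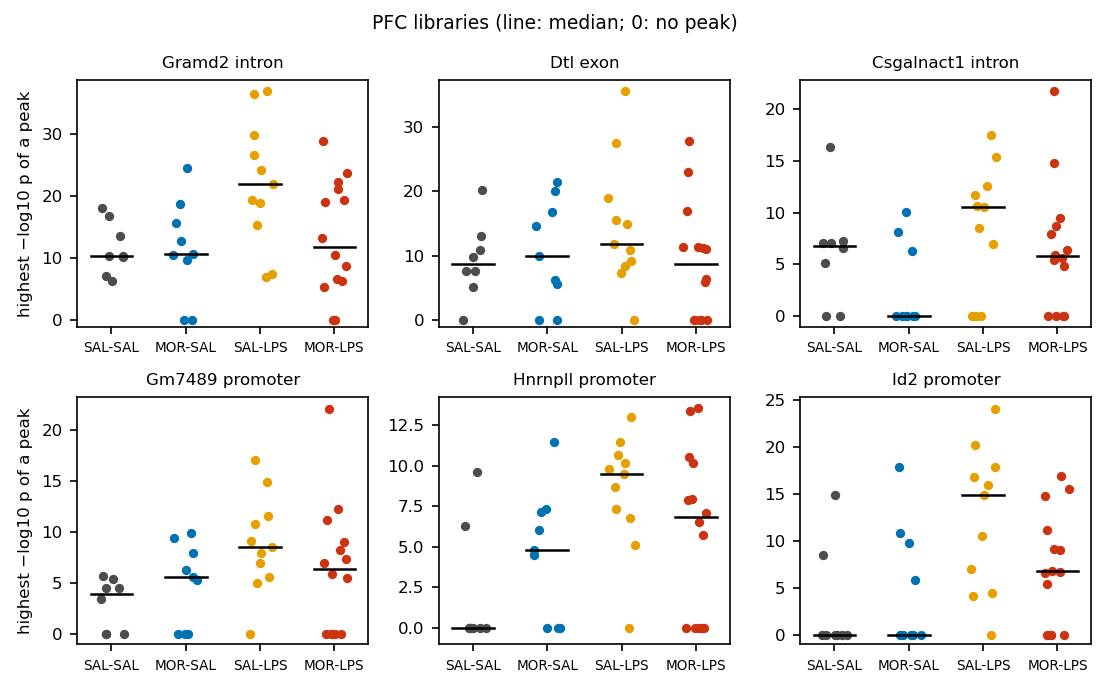
Highest −log10 p of a peak (y axis) in each PFC library by group (x axis) at 6 PFC-only regions; points are libraries, lines are group medians and 0 is no peak. Gramd2 lacks a peak in libraries of MOR-SAL and MOR-LPS, the other 5 regions in libraries of all 4 groups, and the groups overlap in each panel.

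Of the lists of cell type and function genes, the cortical transcription factor list held 5 PFC-only regions among 74 PFC regions (6.76%, against 2.16% over all PFC regions). Their genes were Id2, an inhibitor of bHLH factors, Nfia, Tshz3, a zinc finger factor of projection neurons, and Fezf2, the determinant of subcerebral projection neurons. The Id2 promoter had peaks in 2 of 8 SAL-SAL, 4 of 9 MOR-SAL, 10 of 11 SAL-LPS and 10 of 14 MOR-LPS libraries, with −log10 p of up to 14.9, 17.9, 24.1 and 16.9. Without MOR-SAL 13-1, where it was at rank 99.6 with a −log10 p of 5.87, 3 of 8 MOR-SAL libraries had a peak. It was also present in 40.9% of hippocampus and 48.8% of hypothalamus libraries. The region 5.94 kb from Fezf2 had peaks in 47.6% of PFC and 27.3% of hippocampus libraries, and the Tshz3 intron in 52.4% and 29.5%. The Nfia intronic region named in the comparisons below had peaks in 59.5% of PFC but 63.6% of hippocampus libraries.

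Other lists held few or none. Of synaptic scaffold and adhesion genes, 6 of 155 PFC regions (3.87%) were PFC-only, at Lrrtm2, Cntn4, Dlg2, Dlg1 and Nrxn3, which all act in synapse organisation. Astrocyte genes held 2 of 8, near Slc1a2, the main glial glutamate transporter, and Aqp4, the glial water channel; the Slc1a2 region lies in Pamr1 and the Aqp4 region in Chst9, and they were present in 28 and 20 PFC libraries. Pan-neuronal genes held 1 of 66, near Celf4, an RNA-binding protein. Potassium channel genes held 1 of 119, in Kcnma1, the BK channel. The list of NF-kB and acute inflammation genes held 1 of 11, a region 32.2 kb from Tlr4, the LPS receptor, with a peak in 28 of 42 PFC, 17.8% of striatum and no hippocampus or hypothalamus libraries. Its −log10 p reached 15.4 in SAL-SAL, 13.7 in MOR-SAL, 16.7 in SAL-LPS and 12.6 in MOR-LPS, so the groups overlapped. The lists of striatal projection neuron genes (0 of 139), opioid system genes (0 of 76), axon guidance genes (0 of 64), activity-induced genes (0 of 59), glutamate receptor genes (0 of 59), cortical layer markers (0 of 44), glucocorticoid genes (0 of 38), transmitter receptor genes (0 of 33), hippocampal genes (0 of 27), interneuron genes (0 of 25), oligodendrocyte genes (0 of 21), hypothalamic genes (0 of 3) and endothelial genes (0 of 1) held none, and microglia genes had no PFC region.

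Most genes had a single PFC-only region: 219 had 1, 12 had 2 and 4 had 3. The genes with 3 were Efhd2, a calcium-binding protein, Adtrp, a lipid hydrolase, Rnf150, a ring finger protein, and Etl4, with 4, 5, 7 and 10 PFC regions in all. At Efhd2 the 3 regions lie 3.12 to 20.2 kb from the start, with peaks in 27, 23 and 24 PFC libraries and in 25% to 54.5% of hippocampus libraries. The Rnf150 regions are 3 intronic ones 68 to 81.4 kb from the start, with peaks in 29, 29 and 24. At Etl4, a promoter region had peaks in 23 and 2 introns in 19 and 21. An Adtrp intron had peaks in 58.5% of hypothalamus libraries, against 64.3% in PFC.

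Groups of at least 3 PFC-only regions with gaps of at most 250 kb were sought by a rule set after the values were seen. The largest held 7 of the 11 PFC regions in 331 kb (chr2:62299985-62631185), over Slc4a10, a bicarbonate transporter of neurons, Dpp4 and Fap, both serine peptidases, and Ifih1, the cytosolic RNA sensor MDA5. Its members lie 498 to 825 kb from the start of Tbr1, whose own 4 PFC regions were shared with hippocampus. The Ifih1 exon region was among the strongest of all, with a mean rank of 44.8 ± 32.8 and −log10 p up to 47.2 in SAL-LPS, but only 25 of 42 PFC libraries had a peak there, against 61.4% of hippocampus and 0% of striatum libraries. Striatum libraries had a peak at 0% to 8.89% at each of the 7. The region of Fap at 743 kb had peaks in 40.5% of PFC, 6.82% of hippocampus and 0% of striatum libraries.

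**Figure D5:**
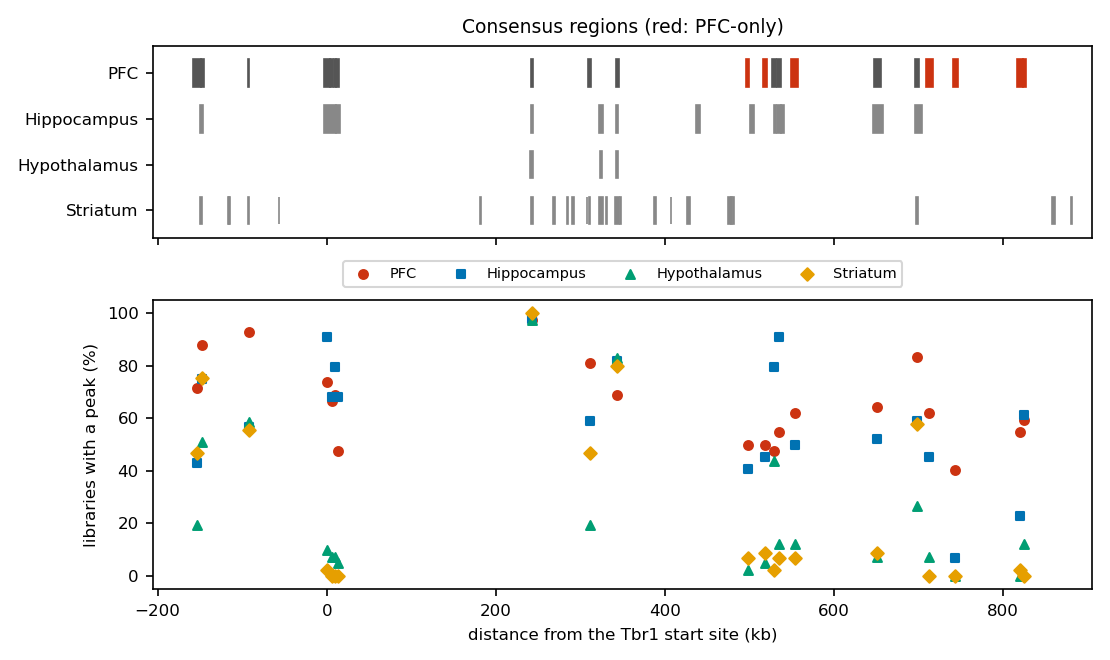
Consensus regions of the 4 lists (top, PFC-only in red) and the share of libraries with a peak at each PFC region (bottom, y axis in percent, 1 symbol per brain region) against the distance from the Tbr1 start site (x axis, kb). The 7 PFC-only regions lie between 498 and 825 kb and show striatum at 8.89% or less and PFC between 40.5% and 61.9%.

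Further groups were 5 regions in 583 kb around Med30 (chr15:52563251-53146003) and 4 at Adtrp and Hivep1 in 303 kb (chr13:41748548-42051606). At the chromosome 15 group, peaks were present in 45.2% to 69% of PFC libraries and in at most 44.4% of the libraries of any other brain region.

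Whether treatment changed these regions was tested on their within-library ranks with limma over all 18272 PFC regions, with sex as a term and Benjamini-Hochberg adjustment. Libraries without a peak at a region share a tied low rank, which in MOR-SAL 13-1 was 49.8 because nearly all regions lacked one. No PFC-only region passed an adjusted p of 0.05 in MOR-LPS against SAL-LPS, where 0% of all regions were called, nor in MOR-SAL against SAL-SAL (0%), SAL-LPS against SAL-SAL (0%), MOR-LPS against MOR-SAL (0%) or the interaction of perinatal morphine and LPS (0%). Between males and females no PFC-only region and 0.00547% of all regions were called. The smallest adjusted p of limma at a PFC-only region was 0.105, 1.0, 0.465, 0.296, 0.564 and 0.572 in that order.

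At an unadjusted p under 0.05 the share of PFC-only regions was below that of all regions, by little in MOR-SAL against SAL-SAL. A PFC-only region had a peak in a median of 57.1% of PFC libraries, against 88.1% for other PFC regions. Many of the ranks compared are thus tied ranks without a peak, and the lower shares do not show that these regions changed less. MOR-LPS against SAL-LPS had 16 of 394 (4.06%), against 11.3% of all regions. MOR-SAL against SAL-SAL had 9 against 2.96% (2.28% of the PFC-only regions), SAL-LPS against SAL-SAL 14 (3.55%) against 6.54%, and MOR-LPS against MOR-SAL 13 (3.3%) against 7.81%. The interaction had 14 (3.55%) against 7.07%, and the sexes 4 (1.02%) against 7.47%. An exact conditional test of peak presence among the 10000 strongest peaks called none either, with 62, 30, 50 and 35 PFC-only regions present in enough libraries to be tested in the first 4 comparisons and 2, 0, 0 and 1 at an unadjusted p under 0.05. Over all regions tested this way, 8.67%, 1.52%, 3.86% and 3.5% were under 0.05.

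Differences in rank, in points of 100, leaned to one side in some comparisons. The side depended on how peaks were ranked and, in some, on MOR-SAL 13-1. Of 394 PFC-only regions, 296 were higher in MOR-SAL than in SAL-SAL, 264 in SAL-LPS than in SAL-SAL, 204 in MOR-LPS than in SAL-LPS, 166 in MOR-LPS than in MOR-SAL and 220 in males than in females, and 126 had an interaction above 0. The median over PFC-only regions was 0.25 in MOR-LPS against SAL-LPS (all regions −0.47), 4.37 in MOR-SAL against SAL-SAL (−0.19), 3.42 in SAL-LPS against SAL-SAL (0.15), −1.08 in MOR-LPS against MOR-SAL (−0.09), −4.1 in the interaction (−0.50) and 0.58 in males against females (0.10). Without MOR-SAL 13-1 and its tied rank, 235 were higher in MOR-SAL than in SAL-SAL and 246 in MOR-LPS than in MOR-SAL. In males 193 were then higher than in females, and 186 had an interaction above 0. The medians were then 1.79 in MOR-SAL against SAL-SAL, 1.64 in MOR-LPS against MOR-SAL and −0.91 in the interaction, and −0.28 between males and females. Lists of equal length were cut to 11306 peaks, the number in MOR-SAL 13-1. At that length most libraries lacked a peak at a given PFC-only region, so most of the ranks were tied. With lists of equal length the median in SAL-LPS against SAL-SAL turned to −2.47, with 162 of 394 above 0, and the interaction to 1.41, with 223 above 0, while MOR-SAL against SAL-SAL was at 0.45 and MOR-LPS against SAL-LPS at 2.12. With peaks of −log10 q of at least 5, these were 0.70, 0.31, 1.94 and 3.0 in the same order. No direction is read from these medians. Comparisons that share a group share its libraries.

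The smallest p in MOR-LPS against SAL-LPS belonged to a region 15 kb from Csnk2a2, a casein kinase 2 subunit. It had a rank of 3.71 to 43.7 in MOR-LPS (median 14.9), with a peak in 4 of 14 libraries, and of 14.9 to 74.4 in SAL-LPS (median 41.4), with a peak in 10 of 11. The ranks overlapped, and the difference was −30.2 ± 8.35 (SE; limma adjusted p = 0.105). Against MOR-SAL, where 7 of 9 libraries had a peak, it was −29.6 ± 8.63 (limma adjusted p = 0.296), and −29.8 without MOR-SAL 13-1. On the other side, an intron of Nfia differed by 23.4 ± 8.35 (limma adjusted p = 0.211), with medians of 33.8 (MOR-LPS) and 12.9 (SAL-LPS), and a region near Klhl6, a B cell gene, by 25 ± 8.94 (limma adjusted p = 0.214).

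In SAL-LPS against SAL-SAL the smallest p was in an intron of Ift80, where the nearest coding start is that of 1110032F04Rik. A peak was present in 9 of 11 SAL-LPS and 1 of 8 SAL-SAL libraries, with medians of 55.1 and 10.7 and a difference of 36.3 ± 11.2 (SE; limma adjusted p = 0.465). The promoter of Nfya, a subunit of the CCAAT-binding factor NF-Y, had a peak in the same numbers of libraries and differed by 21.9 ± 8.22 (limma adjusted p = 0.609). An intron of Pth2r, a parathyroid hormone receptor gene, had a peak in 7 of 9 MOR-SAL and 3 of 8 SAL-SAL libraries and differed by 27.1 ± 9.85 (limma adjusted p = 1.0). It also had the smallest p in the interaction, at −35.4 ± 12.6 (limma adjusted p = 0.564). Without MOR-SAL 13-1 these differences were 25.7 and −34. Between the sexes the lowest p was at an intron of Smchd1, near Gm4707, with a peak in 6 of 20 male and 15 of 22 female libraries and a difference of −14 ± 5.73 (limma adjusted p = 0.572). None of these values passed the threshold.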

How the data were processed

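H3K27ac peak lists of 174 libraries and 4 consensus lists were used. The 32 input libraries have no files here. Per the labels and the study's methods, reads were trimmed (Trim Galore 0.6.7) and aligned to mm10 by the authors (Bowtie2 2.4.5), duplicates were dropped (SAMtools 1.15.1), and MACS2 2.2.7.1 was run on each library for peaks. The deposited values are the fold enrichment (a ratio), the −log10 p-value and the −log10 q-value of each peak. Consensus lists were made per brain region over all groups with DiffBind 3.10.1. No counts were used here.

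Libraries under 10000 peaks were left out (PFC SAL-SAL 9-2, with 4371 peaks), and hippocampus SAL-LPS 5-2, identical to 1-2, was counted once, which left 172. Each PFC region took the highest −log10 p of an overlapping peak (1 bp), 0 without one, ranked within the library. Ranks of 42 libraries were fitted with limma 3.58.1 (R 4.3.3) on group and sex, with a mean-variance trend, and adjusted over all 18272 regions (Benjamini-Hochberg, threshold 0.05). The script was tested on simulated data, where it recovered most large shifts in rank and few moderate ones, so the absence of calls does not show that ranks were unchanged. Genes come from GENCODE M21, with assignment to the nearest coding start within 100 kb, and sequences from GRCm38.p6, the same build as mm10. Motifs were counted on both strands in 300-bp windows. Wilson intervals cover counting error only.

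Named regions are the 12 of highest mean rank, the 12 with the largest difference in share of libraries from the next brain region, up to 3 per gene list, the 2 of smallest p per direction and comparison, those of the 6 genes with most regions, and 3 on each side of the rule's threshold. Regions and lists were chosen with earlier results of these data known. What the 2 parts of the replicate number stand for is not given in the labels; the first part, not shared between perinatal saline and morphine libraries of PFC, had a correlation of 0.034 as a block. Results of 1 gene are not reported here.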

Additional observations from a re-analysis of the deposited data

Results flagged for a closer look

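Checks for a library far from the rest of its group, by Dixon's 95% limit for the gap to the nearest library, were possible in SAL-SAL (8 libraries) and MOR-SAL (9). They covered the named regions, the number of peaks and the shares of regions with a peak, and were 128 in all. The limit is set so that chance flags 1 in 20 normal samples. Ranks here hold ties and the checks share libraries, so that rate need not hold.

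In SAL-SAL, 1 high library stood apart in rank at 9 regions. Male 1-1 was that library at 4, with ranks of 46.7 near Thrb (next library 22.3), 72 near Pgghg (next 22.3), 75.1 in Clip1 near Vps33a (next 36.9) and 67.3 near Adtrp (next 26.4). Female 10-3 was that library at 4, with 54.2 in Nipal2 (next 28.2), 79.99 near Aqp4 (next 29.3), 98.8 near Lrrtm2 (next 30.9) and 64.4 in Dab1 (next 22.3). Female 9-0 stood apart at Smchd1 near Gm4707 with 22.3 (next 13.3), which is its tied rank without a peak. Libraries 1-1 and 10-3 had a peak at 84.5% and 75.6% of PFC-only regions, against a SAL-SAL median of 33.9%.

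In MOR-SAL, library 13-1 had a peak at 0.414% of the other PFC regions, against 58.8% in the next library and a median of 92.3%.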

How the results depend on the processing

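No PFC-only region was called in any comparison under any alternative that was run. Peaks were taken from lists of equal length, by fold enrichment in place of −log10 p, at 50% overlap or at −log10 q of at least 5. The model was fitted without sex, with the number of peaks or, added after seeing the data, with the sequencing run as a term. Other fits took only regions with a peak in at least 50% of libraries, or left out MOR-LPS 12-2 or MOR-SAL 13-1. The exact presence test did not cover the interaction or the sexes, and the fit without a sex term did not compare the sexes. With the first part of the replicate number as a replicate block the count was 0 in each comparison and no call changed. Over all regions, MOR-LPS against SAL-LPS had 31 calls with fold enrichment, 139 with −log10 q of at least 5, 5 without MOR-LPS 12-2 and 3 with the run as a term, none of them PFC-only. With lists of equal length the difference near chromosome 6 position 139288261 in MOR-LPS against SAL-LPS became 2.01, that at Nfya in SAL-LPS against SAL-SAL −0.12 and that at Ift88 near Il17d between sexes −1.03. Requiring no peak in 20% of the libraries of any other brain region left 56 regions. Start sites of all annotated genes raised the promoter share to 20.3%. Lists of equal length lowered the mean share of PFC libraries with a peak from 58.3% to 9.73%, so the lack of calls with them says little. With 500-bp windows, shares in PFC-only against other PFC regions were 36.5% and 34.2% for CAGATG, 26.1% and 27.3% for CAGCTG, 19% and 15.8% for AP-1, 10.4% and 11.1% for TAATTA, 9.14% and 7.94% for MEF2, 5.84% and 9.94% for NF-kB, 2.54% and 9.55% for SP/KLF, 1.27% and 2.77% for the CTCF core, and 1.78% and 1.04% for the glucocorticoid response element, whose order turned. The medians of rank differences that turned sign are given with the comparisons. Peak lists carry no read counts, so levels below the peak threshold could not be compared.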
